A study of Mus musculus with 60 samples.

Results

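Colon tissue and lung tissue of the same day 28 collection were compared by the bacteria they carried. The comparison took every library titled as colon, 12 in all, and every library titled as lung, also 12, which together are 24 of the 60 libraries of the series. Each tissue held 6 libraries of control mice, which were not exposed, and 6 of mice that received PET (polyethylene terephthalate) nanoparticles, the plastic of drink bottles, by daily oral gavage over 28 days, with a dose of 0.5 mg in a volume of 0.1 ml each time. All mice were male, and their strain and age are not stated. Exposure was kept as a block, so that colon was set against lung within each arm. DNA of both tissues was taken with the same blood and tissue kit, and variable regions V3 and V4 of the gene for 16S rRNA were sequenced. The design text gives 12 mice, but each library carries a number of its own, so no colon library could be matched to the lung library of the same animal, and the p-values measure the spread between libraries.

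The 16S rRNA gene is carried by all bacteria and archaea, and its variable stretches tell taxa apart. The colon holds one of the densest bacterial communities of the body: fibre-degrading anaerobes fill the lumen, while spiral, motile bacteria such as Helicobacter and Mucispirillum live in the mucus over the epithelium. Healthy lung holds few bacteria, most of which arrive from the mouth and upper airway, and low-biomass samples of this kind are known to be open to DNA from reagents, skin or neighbouring libraries. Blank libraries were not analysed here.

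A feature is one distinct amplicon sequence, and values below are shares of a library's prokaryote counts, as mean ± SD over 12 libraries a tissue unless stated. A share is relative, so that fewer bacteria of one taxon and more of all others cannot be told apart. Prokaryote counts ran from 55824 to 278584 in colon and from 10083 to 321277 in lung. Features without a taxonomy line held a median of 2.73% of all counts in colon and 6.74% in lung, with 33.96% in control lung library 6. Lung control libraries 5 and 6 carry a later series of library numbers than the others.

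The tissues differed in what led them. Helicobacter filled most of colon. In lung Bacteroides had the highest mean share, at a much lower level, but the leading genus varied between libraries. Escherichia-Shigella held 42.9% of PET lung library 3 and Akkermansia 52.7% of PET lung library 4, where Bacteroides held 16.1% and 2.84%. Bacteroides was highest in control lung libraries 5 (47.1%) and 6 (23.6%), which carry the later library numbers. Helicobacter, spiral bacteria of the mucus, ran in colon from 12.4% to 96.4%, with a median of 66.8%. In lung it ran from 0.0674% to 3.68%, with a median of 0.548%. Every colon library was above every lung library. The means were 65.04% ± 27.6 in colon and 1.05% ± 1.23 in lung, with 4.94% in day 28 stool and 0.219% in oral swabs. edgeR gave a log2 difference of colon minus lung of 9.28 ± 0.71 (standard error), with an adjusted p of 7.33e-20, and the exact permutation test within arms gave an adjusted p of 0.000313.

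**Figure D1:**
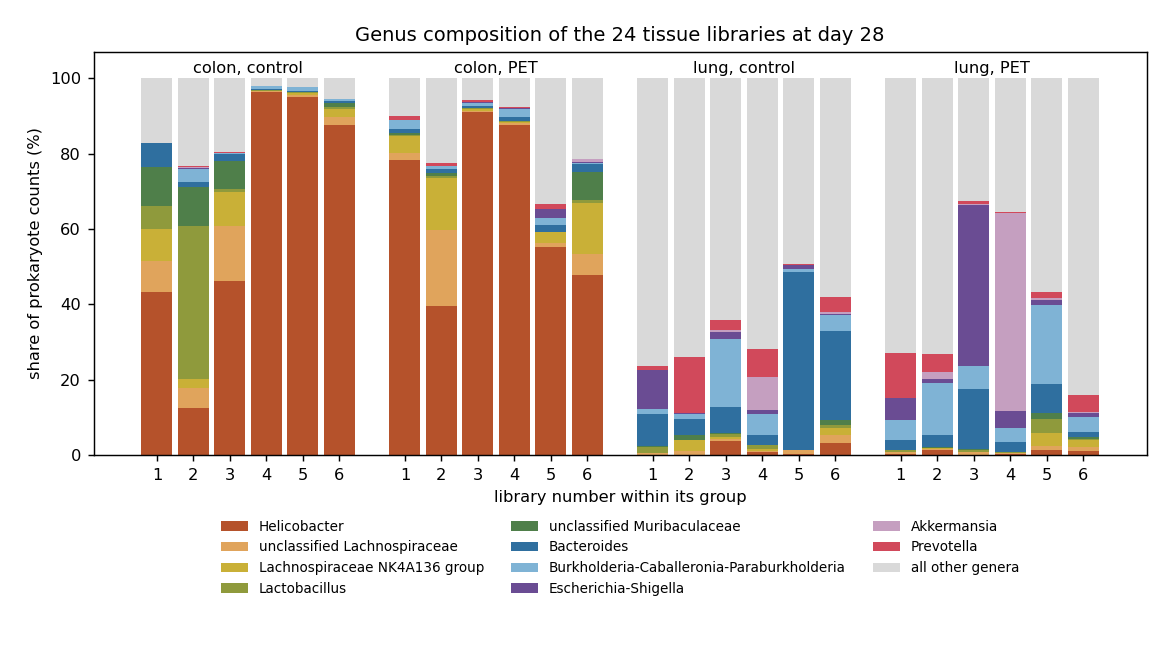
Stacked bars give the share of prokaryote counts (%) of 10 genera and of all other genera in each of the 24 libraries, by tissue and arm. Helicobacter is the largest named block in every colon library except control library 2, where it holds 12.4% beside 40.7% Lactobacillus, and no lung library holds more than 3.68%.

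Because Helicobacter takes up so much of the colon counts, 2 scales had to be kept apart. The edgeR difference is on the scale of TMM normalization, which is set from a trimmed mean of ratios between libraries over genera, while a share falls whenever Helicobacter grows. Burkholderia-Caballeronia-Paraburkholderia shows the gap: its log2 difference of colon minus lung was 0.22 by edgeR and -2.52 on shares. Each taxon was therefore read by both edgeR and an exact permutation test on log2 shares, and the counts that lead below are of genera called by both in the same direction, a rule added after seeing the data.

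Of 267 genera tested, edgeR called 23 higher in colon (8.61%) and 86 higher in lung (32.2%). Both tests called 10 genera higher in colon (3.75%) and 40 higher in lung (15%). Of the genera higher in lung, 37 by edgeR and 5 by both tests had 0 counts in colon, and 2 of those higher in colon by edgeR had 0 counts in lung. These passed the filter on low counts through 1 tissue alone, and their calls restate that. All 50 had the same sign with TMMwsp, library totals, DESeq2 and centred log ratios, and the 49 other than Helicobacter also with its counts left out of the totals. Leaving Helicobacter out changed how many passed both tests, to 17 higher in colon and 22 in lung. Of the original 10, 9 remained, all but Helicobacter itself, and of the original 40, 21 remained. Among those that no longer passed were Akkermansia, Prevotella, Veillonella, Fusobacterium, Porphyromonas, Haemophilus, Rothia, Corynebacterium and NK4A214 group. The split of edgeR calls leaned to lung with TMM, where 21.1% of the calls were higher in colon. That part was 31.6% with DESeq2, 9.36% with library totals, 9.43% by the exact permutation test alone, which called 39.7% of the genera and 69.05% with limma on centred log ratios. The median log2 difference over all genera was -2.32, and it was -4.21 with library totals, -0.24 with centred log ratios, -2.72 without Helicobacter and -2.21 with TMMwsp.

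The 10 genera higher in colon by both tests were Helicobacter, Chlamydia, Mucispirillum, Lachnospiraceae NK4A136 group, Lachnospiraceae UCG-006, Prevotellaceae UCG-001, unclassified Desulfovibrionaceae, Muribaculum, Acetatifactor and Tuzzerella. The last 3 were named after their values were seen. Chlamydia, obligate intracellular bacteria, was in 10 of 12 colon libraries and 1 lung library. In colon it ran from 0% to 2.44%, the latter in PET library 4, around a median of 0.185%, and its only lung value was 0.0275% (8 counts) in PET library 2. The log2 difference was 11.82 ± 1.63 (adjusted p = 2.08e-08 by edgeR and 0.00117 by the exact permutation test). One feature, given as Chlamydia muridarum, held 99.8% of the colon level, and it was also in 10 of 12 stool libraries.

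Mucispirillum, a mucus-dwelling genus of rodents, was in 11 colon libraries (median 0.0544%, highest 1.01%) and 2 lung libraries (highest 0.0893%), with a log2 difference of 7.56 ± 1.59 (adjusted p = 0.000352 by edgeR and 0.00257 by the exact permutation test). Unclassified Desulfovibrionaceae, a family of sulfate-reducing bacteria, stood at 0.304% ± 0.488 in colon and 0.0195% ± 0.0226 in lung (log2 6.02 ± 1.31). Both tissues held some of it, and the highest lung value of 0.0793% was above the colon median of 0.0756%. Lachnospiraceae NK4A136 group, of a family of fibre-degrading gut anaerobes, was found in all 24 libraries, at 4.85% ± 5.16 in colon and 0.946% ± 1.23 in lung. Its groups overlapped widely and its call by both tests was lost in 15 of 24 fits that left out 1 library. Prevotellaceae UCG-001 reached 2.05% in colon and 0.325% in lung. Lachnospiraceae UCG-006 was in 10 colon libraries, at 0.405% or less. It was also in 1 lung library, PET 5, at 0.555%, which is above every colon library. Of the 10 genera, 8 kept both calls in all 24 such fits. Acetatifactor lost them without control colon library 1 or 6.

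Several larger colon genera were called by edgeR alone. Unclassified Lachnospiraceae stood at 5.05% ± 6.39 in colon and 0.766% ± 0.511 in lung (log2 4.53 ± 0.82, adjusted p = 2.77e-05 by edgeR, 0.0869 by the exact permutation test). Unclassified Muribaculaceae, mouse gut bacteria that degrade plant and host glycans, stood at 3.21% ± 4.25 and 0.49% ± 0.619. Unclassified Clostridia vadinBB60 group stood at 1.04% ± 1.9 and 0.116% ± 0.204. Lactobacillus, lactic acid bacteria, had a colon mean of 4.2% ± 11.6 that rested on control library 2 (40.7%), beside a colon median of 0.351% and a lung median of 0.442%. Its edgeR call (log2 2.69 ± 1.08) was lost in 9 of 24 fits that left out 1 library. Candidatus Arthromitus, the segmented filamentous bacteria of rodents, likewise had 4.89% in control colon library 2 and at most 0.00669% in any other colon library. edgeR alone also called Odoribacter, Colidextribacter, Rikenella, Eubacterium xylanophilum group and unclassified Oscillospiraceae higher in colon, with means of 0.196% to 0.621% in colon and 0.0191% to 0.203% in lung.

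**Figure D2:**
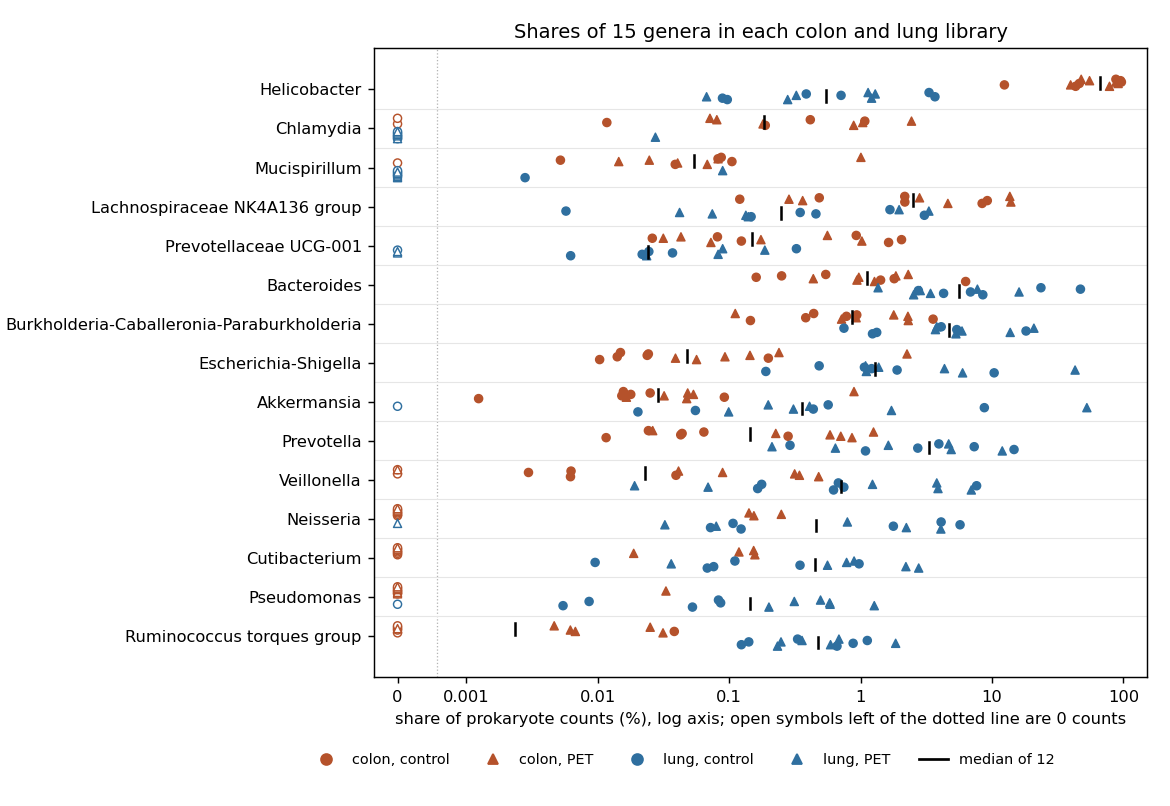
Each symbol is 1 library's share of prokaryote counts (%) on a log axis, for 15 genera, with colon above and lung below in each row, and the black bar marks the median of 12 libraries. Helicobacter and Ruminococcus torques group are the 2 rows in which colon and lung do not overlap.

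Among the genera higher in lung by both tests were facultative and mucus-degrading bacteria, oral genera and skin genera. Escherichia-Shigella, facultative enterobacteria, ran from 0.0103% to 2.26% in colon (median 0.0478%) and from 0.19% to 42.9% in lung (median 1.29%). The highest lung value was in PET library 3, and 1 colon library, PET 5, lay above the lung median. The log2 difference was -3.35 ± 0.91 (adjusted p = 0.00418 by edgeR and 0.000834 by the exact permutation test). Akkermansia, which degrades mucin, ran from 0.00124% to 0.891% in colon and from 0% to 52.7% in lung. PET lung library 4 held the 52.7% and control lung library 4 held 8.74%, while the lung median was 0.359% and the colon median 0.0285%. Its log2 difference was -4.00 ± 1.09 (adjusted p = 0.0042 by edgeR and 0.0244 by the exact permutation test), and without Helicobacter in the totals the exact permutation test gave an adjusted p of 0.44.

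Ruminococcus torques group, gut anaerobes of the family Lachnospiraceae, was in 6 colon libraries and all 12 lung libraries. Colon ran from 0% to 0.0383% and lung from 0.124% to 1.85%, with no overlap. Only Helicobacter and Ruminococcus torques group, 2 of 267 genera (0.749%), separated the tissues in this way. The log2 difference was -4.69 ± 1.26 (adjusted p = 0.00418 by edgeR and 0.000313 by the exact permutation test). Prevotella, a genus of gut and mouth, stood at 0.344% ± 0.413 in colon and 4.51% ± 4.69 in lung. Oscillospiraceae UCG-002 stood at 0.122% ± 0.318 and 3.0% ± 4.52, Christensenellaceae R-7 group at 0.105% ± 0.235 and 1.26% ± 1.6, Coprococcus, a butyrate producer, at 0.024% ± 0.0454 and 1.12% ± 1.47, and NK4A214 group at 0.0208% ± 0.0264 and 0.655% ± 1.56. These gut anaerobes were at most 0.0322% in day 28 stool.

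Of 13 oral and airway genera tested, edgeR called 8 higher in lung and 0 higher in colon, beside 32.2% and 8.61% of all genera. Both tests called 7 in lung, beside 15% of all genera: Veillonella, Neisseria, Haemophilus, Fusobacterium, Leptotrichia, Porphyromonas and Rothia. With Helicobacter left out of the totals, Neisseria and Leptotrichia kept both calls and the other 5 did not. The eighth by edgeR, Moraxella, was in 3 lung libraries and had 0 counts in colon. The list's median log2 difference was -4.04, beside -2.32 for all genera. Neisseria, a genus of the mouth and upper airway, was in 3 colon libraries, PET 1, 2 and 3, at 0.141% to 0.249%. It was in 11 lung libraries, with a median of 0.458%, and reached 5.71% in control library 4. Its log2 difference was -5.92 ± 1.92 (adjusted p = 0.0138 by edgeR and 0.00465 by the exact permutation test). By arm, edgeR gave -13.3 in control and -1.89 in PET. Control colon had 0 counts of it, so the size in that arm depends on how a count of 0 is treated. Veillonella, which ferments lactate, stood at 0.11% ± 0.169 in colon and 2.17% ± 2.75 in lung, and Fusobacterium at 0.037% ± 0.0738 and 1.22% ± 2.14.

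The genera that led the oral swabs were in lung at lower shares than in the swabs. Muribacter, a rodent relative of Pasteurella, and Streptococcus made up 50.7% and 30.3% of the oral swab counts, and both were picked out here after their values were seen. In lung they stood at 0.348% ± 0.371 and 1.70% ± 1.27, and in colon at 0.0506% and 0.107%. edgeR called neither, and the exact permutation test on shares called both higher in lung (adjusted p = 0.0402 and 0.000625). Neisseria and Fusobacterium were at 0.00724% and 0.00649% in oral swabs, below their lung means. Summed, the list held a median of 4.06% in lung (0.374% to 31.2%), 0.171% in colon (0.0478% to 1.45%) and 90.5% in oral swabs.

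Of 8 skin genera tested, edgeR called 5 higher in lung (32.2% of all genera) and both tests (15% of all genera) called Cutibacterium, Staphylococcus and Corynebacterium, which are commensals of skin. With Helicobacter left out of the totals, Corynebacterium lost its call by the exact permutation test (adjusted p = 0.0682). Cutibacterium was in all 12 lung libraries, from 0.00956% to 2.77%, and in 4 colon libraries, all PET, at 0.0188% to 0.157%. Its log2 difference was -4.69 ± 1.63 (adjusted p = 0.0208 by edgeR and 0.00117 by the exact permutation test). By arm, edgeR gave -10.7 in control, where colon had 0 counts and the size depends on how a 0 is treated, and -1.90 in PET. Kocuria, with 0 counts in colon, and Anaerococcus were called by edgeR alone. The list's summed median was 1.72% in lung, 0.00568% in colon and 0.0863% in oral swabs.

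Of the genera common as reagent contaminants, 13 could be tested. edgeR called 2 higher in lung, Pseudomonas and Chryseobacterium, beside 32.2% of all genera, and both tests called Pseudomonas, beside 15% of all genera. Pseudomonas, of soil and water, was in 11 lung libraries (median 0.143%, highest 1.27%) and in 1 colon library at 0.033%. The median log2 difference of the list was -0.54, beside -2.32 for all genera, both on the TMM scale. The exact permutation test on shares gave adjusted p of 0.0201 for Sphingomonas and 0.00739 for Acinetobacter. Their means were 0.392% and 0.0135% in colon and 1.85% and 0.0989% in lung. Of the other members only Pseudomonas and Burkholderia-Caballeronia-Paraburkholderia passed that test. Burkholderia-Caballeronia-Paraburkholderia, second by mean share in lung, was in all 24 libraries, at 1.2% ± 1.06 in colon and 7.02% ± 6.75 in lung. edgeR did not call it (adjusted p = 0.858), while on shares the exact permutation test gave -2.52 on the log2 scale (adjusted p = 0.00277). A single feature held 99.7% of its colon level and 99.5% of its lung level. That feature had 310 to 6239 counts a library in colon (median 976), 383 to 6532 in lung (median 3590) and 298 to 3381 in oral swabs, and in stool it was in 10 of 12 libraries (median 29.5 counts). Leifsonia feature 1 was also in all 24 tissue libraries, at 0.216% ± 0.198 in colon and 1.5% ± 1.6 in lung. The summed share of the reagent list had a median of 6.47% in lung, 1.11% in colon, 0.478% in oral swabs and 0.00713% in stool, and its part in the tissue difference was not tested.

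The remaining lists were mixed, and are read beside all genera, of which edgeR called 8.61% higher in colon and 32.2% in lung, and both tests 3.75% and 15%. Of 6 mucus-associated genera, edgeR called Helicobacter, Mucispirillum and Candidatus Arthromitus higher in colon and Akkermansia higher in lung, and both tests called all of these but Candidatus Arthromitus. The other members, Desulfovibrio and Bilophila, leaned to lung (log2 -1.47 and -1.48) without an edgeR call. Their means were higher in lung, and the exact permutation test on shares gave adjusted p of 0.0421 and 0.00767. Of 11 butyrate producers, edgeR called Odoribacter higher in colon and Coprococcus and Butyricimonas higher in lung, and both tests called the last pair. Of 6 enterobacteria, edgeR called Escherichia-Shigella, Serratia and Pantoea higher in lung, the latter pair with 0 counts in colon, and both tests called the first. Of 5 lactic acid bacteria and bifidobacteria, edgeR called Lactobacillus higher in colon and Lactococcus and Leuconostoc higher in lung, and both tests called 0 (Bifidobacterium had an adjusted p of 0.0127 by the exact permutation test and 0.357 by edgeR). List medians of the log2 difference were 2.56 for mucus-associated genera, -0.49 for butyrate producers, -3.89 for enterobacteria and -2.40 for lactic acid bacteria.

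Gut anaerobe families made up more of lung than of colon on the share scale. Their 14 families summed to a median of 41.6% in lung (22.9% to 84.4%), 18.3% in colon (0.936% to 51.5%) and 75.3% in stool. These totals include Helicobacter, with a mean of 65.04% in colon and 1.05% in lung. The sum was not taken with Helicobacter left out, so the order of the tissues among the other bacteria is not given by it. edgeR called Lachnospiraceae and Muribaculaceae higher in colon and Christensenellaceae higher in lung, and both tests called only the last. Lachnospiraceae held 12.1% ± 12.8 of colon and 12.01% ± 7.74 of lung counts; its edgeR call (log2 1.83 ± 0.66, adjusted p = 0.0232) is on the TMM scale, where the median family stood at -2.52. Among all families tested, edgeR called 8 higher in colon (6.9%) and 43 in lung (37.1%), and both tests called 3 (2.59%) and 31 (26.7%). A family with counts in 1 tissue alone passes the filter on low counts through it, and calls of this kind were not counted. The 3 were Helicobacteraceae, Chlamydiaceae and Deferribacteraceae, and the 31 include Enterobacteriaceae, Akkermansiaceae, Streptococcaceae, Neisseriaceae and Peptostreptococcaceae. Of 19 phyla, edgeR called 4 higher in colon (21.1%) and 2 in lung (10.5%), and both tests called Campilobacterota, the phylum of Helicobacter, and Deferribacterota, that of Mucispirillum. Of the 2 in lung, Myxococcota had 0 counts in colon and passed the filter on low counts through lung alone. Firmicutes turned with the scale: 22.9% ± 21.4 of colon and 41.5% ± 16.2 of lung counts, called higher in colon by edgeR (log2 1.92 ± 0.62) and higher in lung by the exact permutation test (log2 -1.76, adjusted p = 0.0312).

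Bacteroides, Faecalibacterium and Blautia were found in both tissues and were not called by edgeR. Bacteroides, which degrades glycans, ran from 0.161% to 6.3% in colon (median 1.12%) and from 1.36% to 47.1% in lung (median 5.57%), and was highest in control lung library 5. Colon and lung overlapped, edgeR did not call it (log2 -0.99 ± 0.72, adjusted p = 0.271), and the exact permutation test on shares gave an adjusted p of 0.00208. Faecalibacterium, a butyrate producer, had a median of 0.0968% in colon, 2.99% in lung and a mean of 0.01% in stool. Blautia had medians of 0.17% and 1.6%. On shares the exact permutation test called Faecalibacterium (adjusted p = 0.00203) and Blautia (adjusted p = 0.00257) higher in lung. Alistipes, Sphingomonas, Dialister, Roseburia, Subdoligranulum, unclassified Clostridia UCG-014 and unclassified Eubacterium coprostanoligenes group were other named genera of both tissues that edgeR did not call. That test on shares called Alistipes, Sphingomonas, Dialister, Subdoligranulum and the last of these higher in lung.

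The features inside a genus often differed between the tissues. Bacteroides of colon was led by a feature given as Bacteroides acidifaciens, which held 39.9% of the genus level in colon and 1.21% in lung, and 5.89% of stool counts. In lung the leading feature was given as Bacteroides vulgatus, with 26.4% of the lung level and 8.07% of the colon level, and it was in 2 of 12 stool libraries. It stood at 24.2% in control lung library 5, beside a lung median of 0.56%. edgeR did not call it (adjusted p = 0.312). Both tests called another Bacteroides vulgatus feature and a Bacteroides caccae feature higher in lung, and a Bacteroides fragilis feature was in 7 lung libraries and 0 colon libraries. The Bacteroides caccae feature stood at 4.86% in control lung library 5, beside a lung median of 0.0744%. The Bacteroides fragilis feature reached 7.58% in lung, beside a median of 0.0316%. In Odoribacter the leading lung feature, given as Odoribacter splanchnicus, held 46.6% of the lung level and 0.277% of the colon level. The leading Alistipes feature of colon held 24.8% of its level there and 0.0532% in lung. In unclassified Clostridia UCG-014 the leading feature of each tissue had 0 counts in the other.

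Other genera were carried by the same features. The profiles of Faecalibacterium, as shares of the genus level by feature, overlapped by 79.9%. Akkermansia was 1 feature, given as Akkermansia muciniphila, at 99.7% of the colon level and 99.9% of the lung level, and Escherichia-Shigella feature 1 held 85.2% and 94.3%. In day 28 stool these 2 features averaged 0.00218% and 0.00604% of counts, and in oral swabs 0.00826% and 0.119%. The 3 leading Helicobacter features of colon were all present in lung. Helicobacter feature 1, given as Helicobacter apodemus, stood at 43.3% ± 24.1 in 11 colon libraries and 0.46% ± 0.512 in all 12 lung libraries. Helicobacter feature 2, given as Helicobacter mastomyrinus, stood at 19.96% ± 15.6 and 0.193% ± 0.252, and feature 3, given as Helicobacter typhlonius, at 1.5% ± 2.74 and 0.0354% ± 0.0407. In counts, feature 1 had 38 to 525 a library in lung (median 147), 55 to 384 in oral swabs (median 184) and a median of 52696 in colon.

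**Figure D3:**
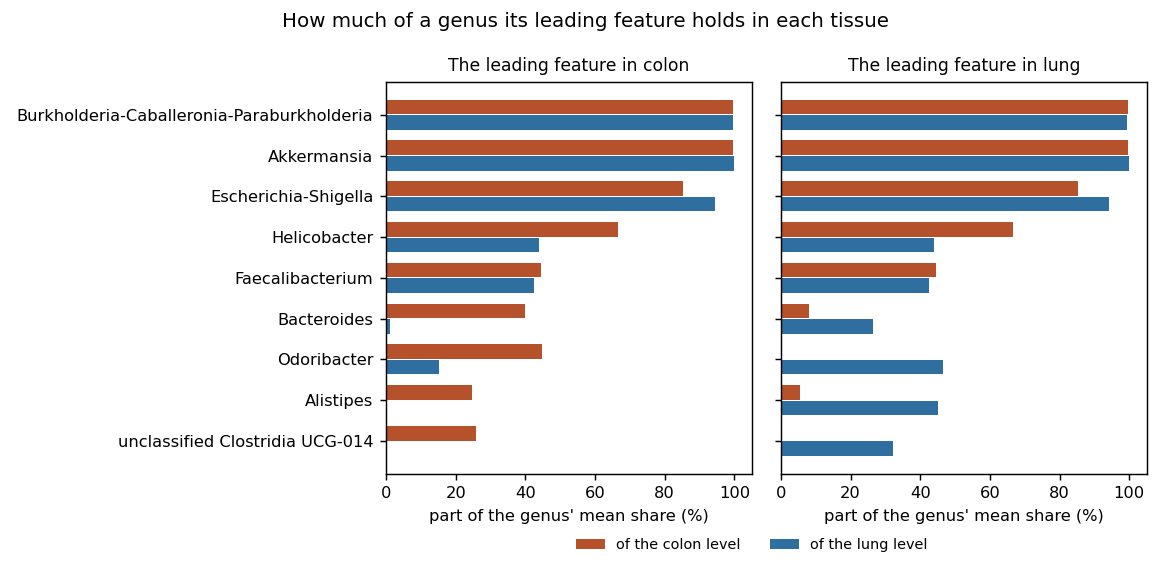
Bars give the part (%) of a genus' mean share that its leading feature held, for the leading feature of colon (left) and of lung (right), in colon and lung. Burkholderia-Caballeronia-Paraburkholderia and Akkermansia are 1 feature in both tissues, while the leading Bacteroides feature of colon drops from 39.9% of the colon level to 1.21% of the lung level. The lung level of Bacteroides is a mean that includes 47.1% in control lung library 5.

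Across features, 844 were tested. edgeR called 305 higher in colon (36.1%) and 157 higher in lung (18.6%), and both tests called 25 (2.96%) and 19 (2.25%). The 25 include Helicobacter features 1 and 2, Chlamydia feature 1, Lachnospiraceae NK4A136 group feature 1 and unclassified Lachnospiraceae feature 2. The 19 include Escherichia-Shigella feature 1, Oscillospiraceae UCG-002 feature 1, Subdoligranulum feature 1 and Cutibacterium feature 1. No feature separated the tissues without overlap, 0 of 844 (0%).

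Genera were widely shared and features were not. With detection set at 3 libraries of a tissue, lung had 234 genera, and the genera found in both tissues were 54.7% of these and 92.1% of the fewer genera of colon. For features, colon had 470 and lung 458, with 169 in both, 35.96% of colon's and 36.9% of lung's. Another 204 features, 43.4% of colon's, were in at least 3 colon libraries and in no lung library. The reverse held for 27.9% of lung's features. When every library was thinned to 10083 counts, 46.2% of colon's features had no lung count, 31.3% of lung's had no colon count, and the shared ones were 31.9% of colon's and 31.3% of lung's. The 169 shared features held a median of 81.4% of colon counts (58.0% to 98.4%) and 52.7% of lung counts (29.4% to 72.9%). They include 4 Helicobacter features, and with Helicobacter left out of the counts the medians were 45.4% of colon (24.9% to 69.5%) and 51.9% of lung (29.2% to 72.8%).

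The features of each tissue had different ties to the other sites. Of the 204 features found only in colon, 201 (98.5%) had a count in day 28 stool and 145 (71.1%) in oral swabs. Of the features found only in lung, 19 (14.8%) had a count in stool, 72 (56.2%) in oral swabs and 51 in neither. Of the 169 shared features, 146 (86.4%) were in stool and 163 (96.4%) in oral swabs. Of the 4288 features that fit none of these classes, 13.7% had a count in stool and 13.7% in oral swabs. Features in 1 library, 73.9% of all with a count in the 24 libraries, fall in that class. It is therefore not matched to the other classes, which need at least 3 libraries, and gives no background level for them. The features only in colon held a median of 20.4% of stool counts and 2.47% of colon counts. Those only in lung held 6.25% of lung counts, 0.952% of oral swab counts and at most 0.0546% of any stool library. Stool and oral swabs were extracted with another kit than the tissues, and their libraries were sequenced to other depths.

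**Figure D4:**
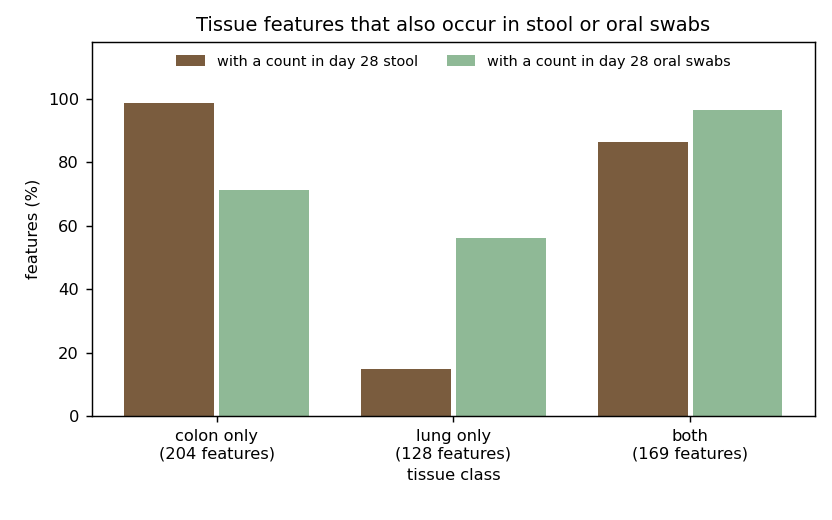
Bars give the percent of features with at least 1 count in day 28 stool or in day 28 oral swabs, for features in at least 3 libraries of colon only, of lung only, or of both. Stool holds 98.5% of the features found only in colon and 14.8% of those found only in lung, and oral swabs hold 71.1% and 56.2%.

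Among genera, 37 were in at least 3 lung libraries and had 0 counts in colon, and 2 the reverse. They were chosen by these counts, so no test is given for them here. A count of 0 was read as allowing up to 3 counts over the 12 pooled libraries, so folds against it are lower bounds that cover counting error only, as PCR counts are not independent molecules. Granulicatella, of the mouth, was in 7 lung libraries (median 0.0147%, highest 0.316%) and at least 267-fold higher, or at least 204-fold without control lung library 4. Peptostreptococcus, in 6, was at least 375-fold higher, or at least 228-fold without that library. Also found only in lung were Holdemania (6 libraries, highest 0.0939%), unclassified Oscillospirales (7 libraries, at least 64.7-fold, or at least 41.4-fold without PET lung library 4) and unclassified Firmicutes (6 libraries, at least 465-fold, or at least 202-fold without control lung library 4).

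Aggregatibacter, Brevibacterium and Cardiobacterium, in 5 lung libraries each, and Terrisporobacter, in 4, were others of these. Brevibacterium had 96.9% of its lung counts in control library 1 and Terrisporobacter 85.2% in PET library 6. Without those libraries the lower bounds fell from 1351 to 59.5 times and from 267 to 39.8 times. Of the colon-only genera, unclassified F082, a family of Bacteroidales, was in 3 libraries with 97.6% of its counts in PET library 2, and Candidatus Stoquefichus was in 3 with 92.7% in control library 1. Their lower bounds of 143 and 37.6 times fell to 3.66 and 3.19 without those libraries.

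The communities separated by tissue as a whole. On feature shares, a PERMANOVA of Bray-Curtis distances put an R2 of 0.321, that part of the squared distance, between colon and lung (exact permutation p = 2.34e-06, the smallest that 853776 arrangements within arms can give, and 7.03e-06 adjusted over 3 whole-community tests). It was 0.354 in the control arm and 0.367 in the PET arm. With Helicobacter left out it was 0.132 (exact permutation p = 1.41e-05). The median distance was 0.554 between colon libraries, 0.823 between lung libraries and 0.963 between a colon and a lung library. From a lung library the median distance to stool was 0.986, and to oral swabs 0.972.

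**Figure D5:**
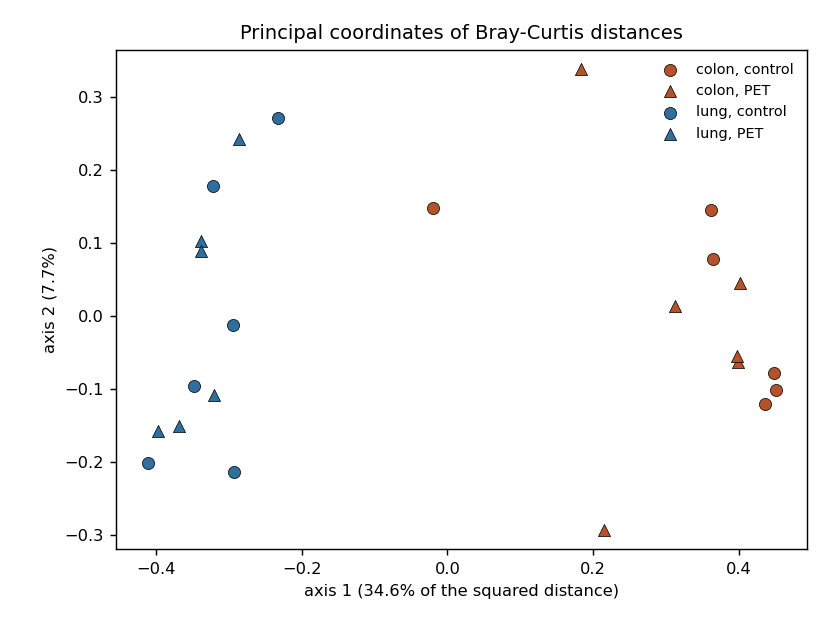
Principal coordinates of the Bray-Curtis distances between the 24 tissue libraries, with axis 1 (34.6% of the squared distance) across and axis 2 (7.7%) up, 1 symbol a library. Lung libraries lie at the left and colon libraries at the right, with control colon library 2 nearest to lung.

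Colon was less diverse than lung by the Shannon index when Helicobacter was counted. The Shannon index, on natural logs, was 2.36 ± 1.1 in colon (0.847 to 3.66) and 4.59 ± 1.01 in lung (2.7 to 6.07), with a difference of -2.23 (exact permutation p = 8.2e-05, 0.000123 adjusted over 3 tests). On full counts without Helicobacter it was 4.28 ± 0.598 and 4.6 ± 1.02, a difference of -0.32 (exact permutation p = 0.374). Richness at 10083 counts was 267 ± 112.9 features in colon and 450.4 ± 218 in lung, a difference of -183 (exact permutation p = 0.0117, also 0.0117 adjusted). With Helicobacter left out the lowest library had 4778 counts, and at that depth the difference was -126 (exact permutation p = 0.0558), beside -188 at 4778 counts with Helicobacter (exact permutation p = 0.00263, a depth chosen after seeing the data). The number of genera at 10083 counts was 85.5 ± 24.5 and 153 ± 27.6 (exact permutation p = 4.69e-06).

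In a fit with the tissue by exposure term, edgeR placed 26 of 267 genera (9.74%) past the threshold, with 64 at an unadjusted p under 0.05. With a stricter filter on low counts 3 remained past it: Neisseria, Corynebacterium and Tyzzerella. Neisseria and Corynebacterium had 0 counts in all 6 control colon libraries. They had counts in 3 and 5 of the 6 PET colon libraries, and in 6 and 5 of the 6 control lung libraries. Their fitted terms depend on how a count of 0 is treated. Fusobacterium, Leptotrichia, Porphyromonas and Cutibacterium, called higher in lung above, were also among the 26 (edgeR adjusted p from 0.00992 to 0.0199). Their edgeR log2 differences were -12.9, -11.6, -9.59 and -10.7 in the control arm. In the PET arm they were -2.51, -2.29, -1.50 and -1.90. Fusobacterium, Leptotrichia and Cutibacterium had 0 counts in all 6 control colon libraries, and Porphyromonas had 3 counts in 1 of them. The sizes in the control arm therefore also depend on how a count of 0 is treated. In single arms, edgeR called 71 genera higher in lung in the control arm and 5 in the PET arm.

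Single libraries decided some calls. Of the 40 genera called higher in lung by both tests, 13 kept both calls in each of 24 fits that left out 1 library, among them Escherichia-Shigella, Neisseria, Fusobacterium, Coprococcus, Cutibacterium, Pseudomonas and Ruminococcus torques group. Akkermansia lost a call without control lung library 4 or PET lung library 4, Veillonella without control lung library 4 or PET lung library 1, Oscillospiraceae UCG-002 without PET lung library 2, NK4A214 group without PET lung library 4, and Corynebacterium, Leptotrichia and Rothia without PET lung library 1. Staphylococcus lost one without control lung library 1 or PET lung library 1 or 2. Prevotella lost one without control lung library 2 or 4 or PET lung library 1 or 2, and Christensenellaceae R-7 group without control lung library 3 or 4 or PET lung library 2 or 4. Butyricimonas lost one without PET lung library 3. Haemophilus lost a call in 9 fits and Porphyromonas in 14.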

How the data were processed

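The deposited table holds raw counts, whole numbers of reads for each sequence feature and library. It was written from a biom file, per the file headers. Per the submitters' processing notes the tools included cutadapt and Bowtie2. The denoiser, the classifier and its 16S database were not given in the sources used here. In a second deposited table, each line names the lineage of a feature, with the classifier's confidence as a fraction. Of 8574 features, 7922 are prokaryote. The 619 features without a taxonomy line and the 19 chloroplast, 8 mitochondrial, 1 eukaryote and 5 unassigned ones were left out, which kept 96.1% of the counts of the 24 libraries.

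Counts were summed by genus, family and phylum. Taxa with a total of 10 counts and a count in 3 libraries were tested with edgeR 4.0.16 (quasi-likelihood F test, TMM, arm as a block, Benjamini-Hochberg, threshold 0.05). On simulated data this test made more false calls than its threshold in sparse counts. An exact two-sided permutation test was therefore added (853776 arrangements within arms, log2 of share plus a pseudocount of 0.5 counts at the lowest total). Its use for families, phyla and features, and the rule that both tests agree on direction, were chosen after seeing the data. Shannon and richness were computed at 10083 counts. Without Helicobacter, Shannon used full counts and richness 4778 counts. Replicates are numbered in accession order. Named taxa are the most abundant genera and features of each tissue, those past the threshold with the highest shares, list members past it, taxa of 1 tissue only, widely shared taxa and interaction genera. The taxa and lists were chosen with earlier results of these data known. Alternatives used DESeq2 1.42.0, limma 3.58.1, other scalings, filters, arms and left-out libraries.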

Additional observations from a re-analysis of the deposited data

Results flagged for a closer look

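In groups of 6, 5 of 80 groups of values held a library far from the others by Dixon's criterion, a rate that chance gives in about 1 of 20 groups. Escherichia-Shigella stood at 0.199% in control colon library 2, and Veillonella at 0.0394% in the same library. Akkermansia stood at 0.891% in PET colon library 6. Subdoligranulum was low, at 0.116%, in PET lung library 4, the library with 52.7% Akkermansia. Richness was 904 features in PET lung library 1.

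The colon minus lung difference differed between the arms by the edgeR interaction term for 26 genera, of which 9 are given here. The terms, PET minus control on the log2 scale, were 17 for Coprobacillus, 14 for Tyzzerella, 13 for Megasphaera, 12.2 for Klebsiella, 11.1 for Neisseria, 10.6 for Corynebacterium, -8.30 for Lachnospiraceae UCG-006, -9.03 for Candidatus Arthromitus and -4.87 for Lactobacillus, with edgeR adjusted p from 0.000268 for Coprobacillus to 0.0303 for Lactobacillus. Neisseria, Corynebacterium, Coprobacillus, Tyzzerella, Megasphaera and Klebsiella had 0 counts in control colon, so the size of their terms depends on how a count of 0 is treated. Neisseria and Corynebacterium kept the call in all 24 fits that left out 1 library. Coprobacillus was in 1 colon and 2 lung libraries, the fewest that the filter allows, so the fits without any of these did not test it. Its call in the other 21 fits cannot show whether it depends on 1 library. Lactobacillus kept the call in 7 of 24. Tyzzerella lost it without PET colon library 2 or control lung library 5, Klebsiella without PET colon library 5 or control lung library 2, Megasphaera without control lung library 2, Lachnospiraceae UCG-006 without control lung library 1 or PET lung library 5, and Candidatus Arthromitus without control colon library 2, PET colon library 2, control lung library 1 or PET lung library 1.

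Features without a taxonomy line, used in no comparison, held a median of 2.73% of all counts in colon and 6.74% in lung.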

How the results depend on the processing

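No paired analysis was possible because no label ties a colon library to the lung library of the same mouse, and the replicate numbers are accession order. Genera higher in colon by edgeR numbered 12 in the PET arm alone and 10 by exact permutation, and higher in lung 155 with library totals, 56 with the stricter filter, 52 with DESeq2, 13 with centred log ratios and 5 in the PET arm. By both tests, colon had 17 without Helicobacter, and lung 22 without Helicobacter and 82 with library totals. Families in colon numbered 15 with DESeq2 and 3 by exact permutation, and in lung 76 with library totals, 26 with the stricter filter and 23 with DESeq2. Phyla in colon numbered 2 with TMMwsp, library totals, DESeq2 or exact permutation and 1 without Helicobacter, and in lung 11 with library totals, 1 with the stricter filter and 6 by exact permutation. Of the features tested, 32.7% were higher in colon with the stricter filter, 12.3% with DESeq2 and 2.96% by exact permutation, and higher in lung 30.3% with library totals, 16.1% with the stricter filter, 7.94% with DESeq2 and 9.12% by exact permutation. Interaction genera numbered 3 with the stricter filter.

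The Shannon difference was -0.32 without Helicobacter, and the richness difference -175 on full counts, -126 without Helicobacter at 4778 counts and -115 in the PET arm, each no longer past the threshold, while with Helicobacter at 4778 counts it was -188 and past it. The median share of lung counts in features of colon was 54.3%, and 71.8% or 37.8% with detection in 1 or 6 libraries. With detection in 1 library and in 6, genera in colon only were 10.5% and 0% of colon's (4.13% when thinned), genera in lung only 41.98% and 3.36% of lung's, and genera in both 58.0% and 55.03% of lung's. Features were 66.6% and 16%, 83.6% and 5.5%, and 16.4% and 33%.

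Signs turned for some named genera, mostly ones that edgeR had not called. Burkholderia-Caballeronia-Paraburkholderia had -2.51 with library totals, -0.057 with the stricter filter, -0.33 without Helicobacter, -0.24 with no filter and -0.24 when thinned, -0.72 in the PET arm, -0.041 without the 2 later numbered lung libraries and -2.52 by exact permutation. Alistipes had -1.37 with library totals, -0.48 without Helicobacter, -0.17 without the exposure block, -0.48 in the control arm, -0.40 when thinned and -1.88 by exact permutation. Sphingomonas had -2.30 (library totals), -0.19 (without Helicobacter), -0.12 (no filter), -0.061 (PET arm) and -2.07 (exact permutation). Library totals gave -0.29 for unclassified Clostridia UCG-014 and -0.54 for Roseburia, and exact permutation -0.038 and -1.65. In the PET arm Faecalibacterium had 0.52, Blautia 0.27, Tyzzerella 1.12 and Dialister 1.06, and Blautia had 0.084 with TMMwsp. Centred log ratios gave 0.090 for Bacteroides, 0.18 for Pantoea, 0.019 for Chryseobacterium and 0.014 for Coprobacillus. The cause was not tested.

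With 1 library left out, genera ran from 22 to 26 in colon and 64 to 98 in lung (both tests 8 to 13 and 30 to 57), families 6 to 10 and 26 to 48, phyla 2 to 5 and 0 to 4, features 28.3% to 37.5% and 15.75% to 23.96% of those tested, and interaction genera 15 to 39. R2 ran from 0.308 to 0.351, the Shannon difference from -2.40 to -2.06 and richness from -205 to -135. Genera in colon only ran from 0.735% to 2.88% of colon's, in lung only from 13.6% to 20.9% and in both from 49.1% to 57.7% of lung's, and features from 37.3% to 47.2%, 25.3% to 33.8% and 29.9% to 40.75%. Log2 differences ran from -0.27 to 0.42 for Burkholderia-Caballeronia-Paraburkholderia, -0.48 to 0.50 for Alistipes and -0.069 to 0.61 for Sphingomonas. The lowest lung library, of 10083 counts, sets the depth at which richness was compared, and a count of 0 there allows a share that deeper libraries would show.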
